A study of Mus musculus with 18 samples.

Results

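The net change of Oct1-deficient mouse embryonic stem cells (ESCs) across a retinoic acid differentiation was measured by setting the 3 RNA-seq libraries of day 6 against the 3 of day 0. These 6 libraries were chosen by the genotype and day in their labels, out of 18 in the series. The series holds 6 groups of 3 libraries, made of the genotypes Parental and Oct1_cKO at days 0, 2 and 6. Day 0 cells were labelled ESCs, and cells of days 2 and 6 were plated on 0.01% gelatin in DMEM with 1.5 ug/ml retinoic acid. All 6 libraries compared here therefore carry the Oct1_cKO genotype, and only the day and the culture differ between them. The labels do not say which part of the Oct1 gene was removed, how or when, or whether the line is 1 clone. Nor do they state that each library had its own culture, and the p-values therefore cover library-to-library spread that may be technical only.

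Retinoic acid binds nuclear receptors that sit on DNA with their partner, and the bound receptors turn on genes such as Rarb, Cyp26a1 and the early Hox genes while ESCs leave pluripotency. Oct1, encoded by Pou2f1, is a widely expressed POU-domain factor that reads the same octamer sequence as the pluripotency factor Oct4, encoded by Pou5f1. Extraembryonic endoderm lines the early conceptus: its visceral part absorbs protein and secretes transthyretin and apolipoproteins, and its parietal part lays down a thick basement membrane. Trophoblast forms the fetal side of the placenta, and both tissues carry simple epithelial keratins.

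The deposited counts summed to between 13694126 and 19018933 per library over 21995 genes for the 6 libraries, and levels below are CPM, the usual depth-scaled count of a gene, on library sizes adjusted by the trimmed mean of M values (TMM). The spread within a group was not even. Counts of cKO day 0 replicate 3 differed from those of replicates 1 and 2 by chi-square values of 10.8 and 10.4 per degree of freedom, against 1.22 between replicates 1 and 2. Ribosomal protein genes took 7.43% of the counts of day 0 replicate 3, against 5.98% and 6.07%, and counts of called genes are given with and without this library below. At cKO day 6, replicate 1 differed from replicates 2 and 3 by 3.49 and 3.98 per degree of freedom, against 1.71 between replicates 2 and 3. Pou2f1 itself (ENSMUSG00000026565, chr1:165865154-166002678, minus strand, GRCm38) stood at 87.2, 88.2 and 62.4 CPM at day 0 and at 36.0, 45.3 and 44.5 CPM at day 6. It fell by 0.91 ± 0.11 (SE) on the log2 scale (edgeR quasi-likelihood test, adjusted p = 6.13e-07), and parental means were 129 CPM at day 0 and 63.4 CPM at day 6. The table holds 1 value per gene, so reads from exons outside a deleted part cannot be told from reads of an intact transcript, and this level is no check of the genotype.

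The 4 genes that mark this comparison were given together with it, so their complete separation of the days is a description only. Ttr, which encodes the thyroid hormone carrier transthyretin (ENSMUSG00000061808, chromosome 18), had no count in any day 0 library and 42.0, 40.1 and 42.8 CPM at day 6. That is at least 193-fold higher, taking 3 counts per library as the floor for a group at 0. Apoa1, the main protein of high-density lipoprotein (ENSMUSG00000032083, chr9:46228580-46230466, plus strand), likewise went from no count to 44.4, 43.0 and 44.5 CPM, at least 203-fold higher. Neither was a change of the first days: at day 2 the cKO mean was 0.0617 CPM for Ttr and 0.418 CPM for Apoa1. Krt7, a simple epithelial keratin (ENSMUSG00000023039, chr15:101411043-101430313, plus strand), stood at 2.56, 2.27 and 2.70 CPM at day 0 and at 399, 359 and 380 CPM at day 6. Its log2 fold change was 7.23 ± 0.09 (SE, adjusted p = 2.01e-40). Olig2, a basic helix-loop-helix factor of motor neuron and oligodendrocyte progenitors (ENSMUSG00000039830, chr16:91225457-91228677, plus strand), went the other way. It had 30.2, 27.1 and 32.6 CPM at day 0 and no count in any day 6 library, at least 166-fold lower. All 4 moved the same way in parental cells. Parental means went from 0 to 5.03 CPM for Ttr and from 0.117 to 30.3 CPM for Apoa1. For Krt7 they went from 3.29 to 110 CPM and for Olig2 from 14.1 to 0.0166 CPM. The difference in net change was called for Krt7 and not for Ttr or Olig2. Ttr had no count at day 0 in either genotype, and Olig2 had none at cKO day 6. Their differences were therefore poorly determined, and the lack of a call does not mean equal changes. For Apoa1 the call depended on the setting.

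**Figure D1:**
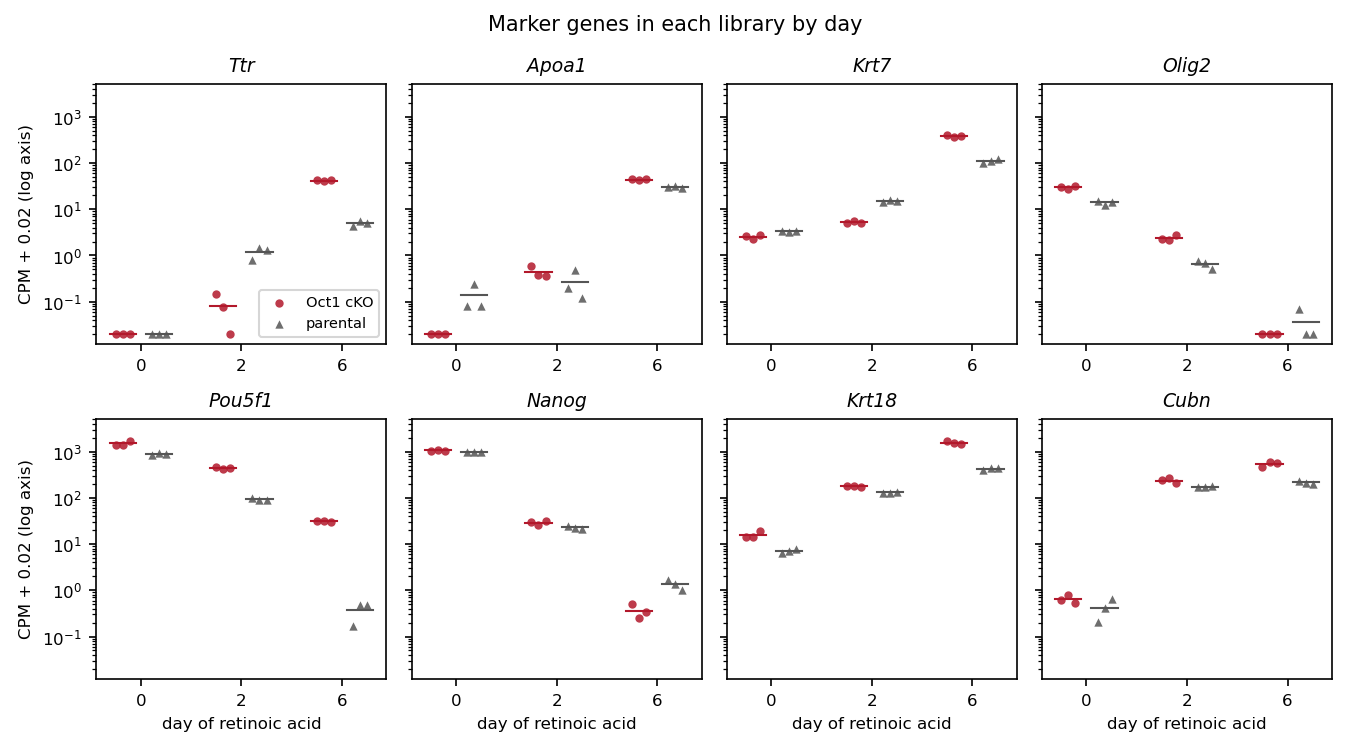
CPM of 8 genes in each library (points, log axis, with 0.02 CPM added so that libraries at 0 can be drawn) at days 0, 2 and 6; bars are means of 3 libraries. Ttr and Apoa1 stand at the floor in all 3 cKO libraries of day 0, Olig2 in all 3 of day 6, and Pou5f1 ends at about 31 CPM in the cKO and under 1 CPM in parental cells.

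Marker sets of several cell types moved with the day as well, and those of visceral endoderm and trophoblast reuse Ttr, Apoa1 and Krt7 from above. The 4 ESC markers (Pou5f1, Nanog, Sox2 and Zfp42) summed to 3294 to 3657 CPM at day 0 and to 70.0 to 72.5 CPM at day 6. The 7 visceral endoderm markers (Ttr, Apoa1, Afp, Amn, Cubn, Rbp4 and Hnf4a) went from 2.64 to 3.61 CPM at day 0, with Ttr and Apoa1 at 0, to 729 to 841 CPM. Cubn alone had a day 6 mean of 545 CPM, while Amn stood at 0.654 and then 0.726 CPM. The parental sum of this set also rose, from 3.91 to 4.84 CPM at day 0 to 330 to 359 CPM at day 6. The 5 trophoblast markers (Cdx2, Elf5, Gata3, Tfap2c and Krt7) summed to 29.1 to 32.2 CPM at day 0 and to 702 to 760 CPM at day 6. Krt7 alone had a day 6 mean of 379 CPM. The parental sum of these 5 was 65.8 to 68.0 CPM at day 0 and 163 to 180 CPM at day 6. The 4 feeder fibroblast markers (Col1a1, Col1a2, Thy1 and Postn) summed to 236 to 246 CPM at day 0 and to 312 to 373 CPM at day 6, with all 4 detected on both days. They did not move together. Col1a1 rose from a mean of 155 to 232 CPM and Postn from 13.7 to 57.5 CPM. Col1a2 stood at 59.1 and then 59.8 CPM, and Thy1 fell from 13.2 to 2.06 CPM. At cKO day 2 the sum was 60.9 to 79.4 CPM. In parental cells it was 790 to 846 CPM at day 0 and 2669 to 2842 CPM at day 6. Blood markers were near 0 throughout (Hbb-y and Ptprc together at most 1.02 CPM at day 0 and 0.127 CPM at day 6). These are bulk libraries: fewer cells of a type and less RNA per cell cannot be told apart, and the part that any cell mixture had in the values below was not tested.

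Over the whole table, 18352 of 21995 genes passed the filter on low counts and were tested. In the cKO, 7592 of them (41.4% of the tested genes) were higher at day 6 than at day 0 and 7417 (40.4%) were lower at an adjusted p under 0.05. Of these, 4892 (26.7%) were at least 2-fold higher and 4417 (24.1%) at least 2-fold lower, while 1561 rose and 1322 fell by at least 8-fold. The groups of 3 libraries did not overlap for 14457 of the 15009 called genes. This rests on the same values as the call and adds no support to it, and the share over all tested genes is not given. Without cKO day 0 replicate 3 the calls numbered 14891, with 7468 higher and 7423 lower. The median log2 fold change of all tested genes was 0.0, and the counts of gene groups below are to be read against these shares. The net change was above the parental one for 32% of tested genes and below it for 31.9%, at the same threshold. Counts of group members above or below the parental change are to be read against those 2 shares.

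The 12 largest increases among genes with an official symbol (clone and model names such as Rik and Gm were left out of this ranking) began from almost nothing. Besides Ttr and Apoa1 they were Nos2, which encodes inducible nitric oxide synthase, the glucuronosyltransferase Ugt2b34, the serpin Serpinb9c, the calcium-binding S100g, the endothelial cadherin gene Cdh5, Fnd3c2 and 4 genes of placental families. Those 4 were Tpbpa, a marker of the spongiotrophoblast, the placental cathepsin Ctsj, the prolactin relative Prl2c5 and Ceacam9. Nos2 had no count at day 0 and 43.1, 41.0 and 40.6 CPM at day 6, and Tpbpa had none and then 37.8, 37.3 and 34.4 CPM. These rises were at least 192-fold for Nos2 and at least 169-fold for Tpbpa. The ranking took only genes whose groups did not overlap, so that separation is no result. Members of the placental families are near-identical to neighbouring copies, so reads may have been split among them. For Tpbpa, Ctsj, Prl2c5 and Ceacam9 the difference in net change from parental cells was not called. All 4 had no count at cKO day 0, so their differences were poorly determined, and the lack of a call does not mean equal changes. Cdh5 reached 282, 264 and 285 CPM from 0.0752, 0 and 0.251 CPM, and it rose in parental cells too, from 0.0603 to 90.3 CPM on average.

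The 12 largest decreases in the same ranking were of genes that ESCs express and that ended at or near 0. Pla2g1b, a secreted phospholipase, went from 58.0, 56.0 and 67.8 CPM to no count at day 6, at least 335-fold lower. Foxd3, a forkhead factor of pluripotent cells and neural crest, went from 56.8, 54.7 and 63.5 CPM to no count, at least 322-fold lower. Pipox, Aoah, Khdc3, Fam25c, Olig2, Epp13 and Spic were also without a count in all 3 day 6 libraries. The long non-coding RNA Platr10 fell from a mean of 133 CPM to 0.0193 CPM, and Mcf2, a guanine nucleotide exchange factor, from 181 to 0.0392 CPM. Nanog, the homeobox factor of naive pluripotency, completed the list, at 1054, 1095 and 1052 CPM and then 0.476, 0.232 and 0.318 CPM.

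Pluripotency genes fell, though not to the same depth for each factor. Of 26 genes of general and naive pluripotency, 25 fell and 1 rose, with a median log2 fold change of -5.49. Nanog fell by 11.58 ± 0.11 (SE) on the log2 scale, and Sox2, the partner of Oct4, fell by 9.41 ± 0.11 from 429, 441 and 456 CPM to 0.953, 0.405 and 0.572 CPM. Pou5f1 was lowered less. It stood at 1400, 1410 and 1740 CPM at day 0 and at 30.8, 31.6 and 30.4 CPM at day 6, with a day 2 mean of 439 CPM between them, and fell by 5.61 ± 0.08 (adjusted p = 8.13e-30). Per kilobase of exon, Pou5f1 still stood at 13.8 CPM at day 6 when Nanog was at 0.153 CPM, where at day 0 the values were 675 and 476 CPM. In parental cells Pou5f1 ended at 0.362 CPM, and the difference in net change between the genotypes was 5.64 ± 0.21 on the log2 scale (adjusted p = 5.79e-19).

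Zfp42, the Rex1 zinc finger gene that marks naive ESCs, also kept a residue. It went from 410, 388 and 409 CPM to 39.3, 37.8 and 41.2 CPM, 10.2-fold lower, and its difference in net change from parental cells was 2.67 ± 0.10 (adjusted p = 1.16e-23). Fgf4, an autocrine growth factor of ESCs, and Gdf3, a TGF-beta family ligand, fell from 357 to 0.141 CPM and from 155 to 0.0617 CPM. Lin28a, an RNA-binding repressor of let-7 maturation, was the 1 member that rose. Its libraries stood at 130, 129 and 128 CPM at day 0 and at 176, 184 and 192 CPM at day 6 (log2 fold change 0.51 ± 0.05, adjusted p = 1.12e-12), while in parental cells it fell from 72.6 to 35.0 CPM. Of 15 genes of formative and primed pluripotency, 12 fell and 2 rose, with a median of -1.95. Zic2, a zinc finger factor of primed cells, fell from 112 to 0.429 CPM. The 2 that rose were Dnmt3a, a de novo DNA methyltransferase, from 95.4 to 160 CPM, and Fgf5, the epiblast growth factor, which stayed below 1 CPM in every library of both groups and lost its call without cKO day 0 replicate 1, day 6 replicate 1 or day 6 replicate 3 (adjusted p = 0.154, 0.0545 and 0.175).

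Genes of the two-cell-like state, a rare totipotent-like condition of ESC cultures, were lower too: 15 of 16 tested fell and none rose, with a median of -2.48. Zscan4c went from a mean of 20.8 CPM at day 0 to 60.5 CPM at day 2 and 2.17 CPM at day 6, so that its net change of -3.27 ± 0.16 followed a higher level on the way. Zscan4c belongs to a cluster of near-identical copies and its counts are uncertain for that reason. Among 14 genes of DNA methylation and demethylation, 9 fell and 5 rose. The imprint-protecting factor Zfp57 fell from 727 to 25.1 CPM and the dioxygenase Tet1 from 490 to 49.9 CPM, while the related Tet3 rose from 11.9 to 93.8 CPM.

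Extraembryonic endoderm genes rose nearly as a whole. Of 38 listed, 36 were tested, 32 were higher and 3 lower, with a median log2 fold change of 4.6 against 0.0 for all tested genes. The rise was shared by parental cells, where 32 were higher and 4 lower, with a median of 4.09. Net changes of 20 members were above the parental ones and 4 below (across all tested genes, 32% and 31.9%). On the uptake side, Cubn, which encodes the endocytic receptor cubilin, stood at 0.602, 0.784 and 0.502 CPM at day 0 and at 474, 591 and 571 CPM at day 6 (log2 fold change 9.76 ± 0.19, adjusted p = 7.85e-18). At day 2 its mean was 235 CPM. Dab2, the adaptor that links such receptors to clathrin, rose from 8.48 to 236 CPM. Amn, the membrane anchor that carries cubilin to the surface, did not follow: it stood at 0.677, 0.471 and 0.816 CPM and then 0.893, 0.521 and 0.763 CPM (log2 fold change 0.12 ± 0.36, adjusted p = 0.769). Lrp2, the megalin partner of cubilin, was 1.42-fold higher.

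The secreted products split in direction. Rbp4, the plasma carrier of retinol, rose from 0.677, 0.941 and 0.753 CPM to 143, 145 and 144 CPM (log2 fold change 7.50 ± 0.10). Afp, the fetal serum protein, had 1 count in the 3 day 0 libraries together and stood at 8.99, 7.70 and 8.52 CPM at day 6. Apoa4 was at least 56.7-fold higher, reaching a mean of 12.3 CPM, and Mttp, which loads lipid onto apolipoprotein B, rose from 4.05 to 263 CPM. Apoe and Apoa2 fell instead. Apoe, a lipid carrier that ESCs express, stood at 602, 584 and 772 CPM at day 0, at a mean of 1588 CPM at day 2 and at 165, 153 and 159 CPM at day 6, a log2 fold change of -2.04 ± 0.10. Apoa2 fell from 12.3 to 2.92 CPM and Apom from 5.23 to 2.70 CPM. Counted as a list of their own, apolipoproteins and lipid transport genes rose in 9 and fell in 4 of 15 tested.

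The transcription factors of endoderm rose with them. Gata4 stood at 1.96, 2.27 and 2.38 CPM at day 0 and at 198, 200 and 188 CPM at day 6, 87.9-fold higher. Gata6 rose from a mean of 0.642 to 68.0 CPM, Sox17 from 1.05 to 43.8 CPM and Foxa2 from 0.0251 to 35.2 CPM. Of 16 tested genes of definitive endoderm and gut, 11 rose and 3 fell, with a median of 3.53, and Gata4, Gata6, Sox17, Foxa1, Foxa2 and Hnf4a are among those that also stand in the extraembryonic endoderm list. Sox2, Cdx1 and Hhex were the 3 that fell. Gata6 ended lower than in parental cells, where it reached 304 CPM, with a difference in net change of -2.09 ± 0.38 (adjusted p = 7.37e-06). Sox17 gained more than in parental cells, by 1.84 ± 0.33 on the log2 scale (adjusted p = 5.51e-06).

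Basement membrane genes were among those with the most counts at day 6. Of 18 tested, 15 rose and 2 fell. Col4a1 and Col4a2, which encode the paired collagen IV chains from neighbouring genes, moved together. Col4a1 stood at 140, 141 and 129 CPM at day 0 and at 9087, 9821 and 9515 CPM at day 6, and Col4a2 at 69.4, 62.9 and 62.5 CPM and then 4753, 5155 and 4964 CPM. Their log2 fold changes were 6.12 ± 0.06 and 6.26 ± 0.06 (adjusted p = 1.29e-43 and 4.61e-43), both larger than in parental cells, by 1.28 ± 0.07 and 1.75 ± 0.07. Lama1, the laminin alpha 1 chain of early basement membranes, rose 25.2-fold to 2284, 2576 and 2450 CPM, and its net change was not distinguished from the parental one (difference -0.06 ± 0.10, adjusted p = 0.628). Agrn, the proteoglycan agrin, was 1.11-fold lower and lost its call without cKO day 0 replicate 2 (adjusted p = 0.054).

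By share of all counts, Col4a1 took 0.858% at day 6 against 0.0126% at day 0. Only 2 genes took more. Peg10, an imprinted retrotransposon-derived gene needed for the placenta, took 1.31%, 1.28% and 1.34% of counts at day 6 and on average 0.0214% at day 0. H19, the imprinted non-coding RNA of the Igf2 locus, took 1.30%, 1.17% and 1.21%, against 0.00558% at day 0. The 20 genes with most counts at day 6 also included Sparc, Lamb1, Lamc1, Lama1, Peg3 and the glucose transporter Slc2a1, where those of day 0 included Hsp90ab1, Npm1, Ncl, Pkm and the ESC gene Dppa5a. The 88 ribosomal protein genes went from 5.98% to 7.43% of counts at day 0 to 3.13% to 3.41% at day 6.

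Trophoblast genes rose as broadly as those of extraembryonic endoderm. Of 25 tested, 22 were higher and 3 lower, with a median log2 fold change of 5.58, or 5.05 with genes absent at day 0 held at their lower bound. Parental cells had 20 higher and 5 lower, with a median of 4.98 without such bounds. Among the regulators, Tfap2c, an AP-2 factor of trophoblast, stood at 24.4, 21.6 and 22.5 CPM at day 0 and at 255, 241 and 242 CPM at day 6. Gata3 rose from 2.64 to 88.8 CPM, Gata2 from 4.16 to 201 CPM and Hand1, a factor of giant cells and early mesoderm, from 0.231 to 93.1 CPM. Elf5, which marks the trophoblast stem cell state, went from 0.226, 0.157 and 0 CPM to 5.66, 4.86 and 6.67 CPM. The core trophectoderm factors did not move together. Cdx2 rose from 2.59 to 9.14 CPM after a day 2 mean of 0.481 CPM, Eomes fell from 14.4 to 4.33 CPM, and Tead4 was 1.12-fold lower, a call lost without cKO day 0 replicate 1 (adjusted p = 0.0748).

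Genes of the differentiated placenta on the same list varied widely. Gcm1, a factor of the labyrinth, ended lower, at 0.0212 CPM from 0.243 CPM, and Prl3d1, a placental lactogen gene, went from no count to 1.79, 1.39 and 1.46 CPM, at least 7.15-fold higher. Ctsq, a placental cathepsin, had no count at day 0 and 7.50, 6.31 and 6.42 CPM at day 6. Rhox6 and Rhox9, placental homeobox genes chosen here after their values had been seen, rose from 2.61 to 586 CPM and from 2.39 to 607 CPM. Dlx3, a homeobox factor of the labyrinth also chosen after its values were seen, rose from 0.464 to 99.8 CPM. The net changes of 16 of the 25 list members were larger than in parental cells and none was smaller (across all tested genes, 32% were larger and 31.9% smaller at an adjusted p under 0.05). Tfap2c differed in direction: in parental cells it fell from 60.3 to 38.8 CPM, and the difference in net change was 4.07 ± 0.09 (adjusted p = 5.89e-31).

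Genes of simple epithelium rose, while E-cadherin fell slightly. Of 35 genes for keratins, junctions and their regulators, 30 were higher, 3 lower and 2 not called, with a median log2 fold change of 2.68. Krt8 and Krt18 encode the keratin pair of simple epithelia. Krt8 stood at 12.7, 13.3 and 15.9 CPM at day 0 and at 1636, 1476 and 1431 CPM at day 6, and Krt18 at 14.1, 14 and 19 CPM and then 1711, 1520 and 1481 CPM. Both were about as steep, 108-fold and 99.2-fold higher. Krt19 rose from 5.67 to 1078 CPM. Per kilobase of exon, day 6 levels were highest for Krt18 at 1093 CPM, then Krt8 at 773, Krt19 at 581 and Krt7 at 53.8. The length used joins all annotated exons of a gene. It is much longer for Krt7 than for the other keratins, so the Krt7 value may be too low.

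Cdh1, which encodes E-cadherin, stood at 660, 673 and 649 CPM at day 0 and at 524, 486 and 541 CPM at day 6. The groups did not overlap, and Cdh1 fell by 0.35 ± 0.05 on the log2 scale (adjusted p = 1.85e-08). Parental cells lost most of theirs, from 638 to 42.4 CPM, and the difference in net change was 3.56 ± 0.07 (adjusted p = 1.05e-31). Of the 35 list members, 27 had a net change above the parental one and 2 below it. Spint1, a protease inhibitor of epithelia, also fell, with a log2 fold change of -0.38 ± 0.05. The tight junction genes Cldn3, Cldn4, Cldn6 and Cldn7 all rose, and Cldn6, singled out after its values were seen, went from 7.59, 8.47 and 8.22 CPM to 121, 126 and 121 CPM while its parental mean went from 17.9 to 12.3 CPM.

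Genes of the mesenchymal transition gained less. Of 15, 10 rose and 4 fell with a median of 0.90, where parental cells had 13 higher, 2 lower and a median of 2.03. The difference in net change was called for 14 of them, 11 below and 3 above the parental one. Cdh2, which encodes N-cadherin, stood at 9.70, 9.49 and 8.97 CPM at day 0 and at 14.1, 12.5 and 9.72 CPM at day 6 (log2 fold change 0.37 ± 0.11, adjusted p = 0.00169), and this call was lost without cKO day 6 replicate 1 (adjusted p = 0.0566). Its parental mean rose from 10.4 to 166 CPM. Zeb1, a repressor of E-cadherin, fell from 52.6, 50.3 and 43.0 CPM to 19.7, 19.3 and 18.7 CPM in the cKO, and its log2 fold change of -1.33 ± 0.07 compares with 1.57 in parental cells. Snai1, another such repressor, rose in both genotypes, in the cKO from 7.07, 5.88 and 7.03 CPM to 37.2, 34.7 and 32.5 CPM. Fn1, the matrix protein fibronectin, fell from 2543 to 1507 CPM, and its receptor chain Itga5 rose from 108 to 513 CPM.

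**Figure D2:**
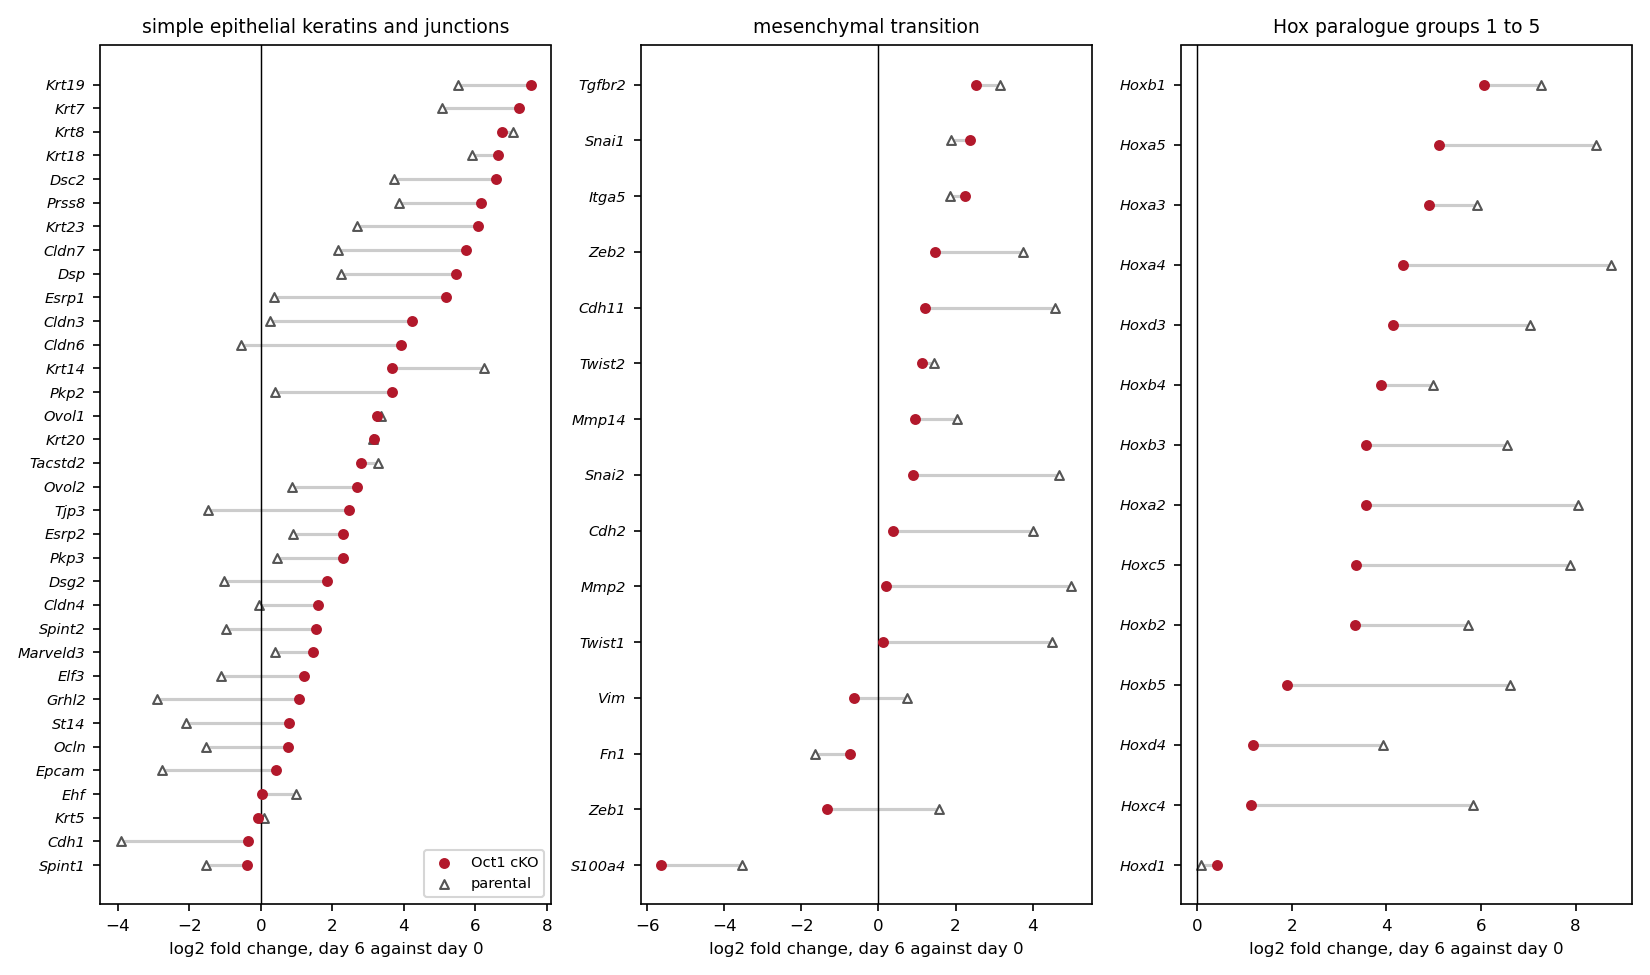
Log2 fold change of day 6 against day 0 for tested members of 3 gene lists, in the Oct1 cKO (circles) and in parental cells (triangles). Most epithelial genes sit further right in the cKO, with Cdh1 at -0.35 against -3.91, and most mesenchymal and Hox genes further left, with Cdh2 at 0.37 against 4.0.

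Promoter letters were looked up for these groups because Oct1 reads the octamer and Snai1 and Zeb1 read an E-box. Windows of 250 bases before to 50 after each start site came from RefSeq (GRCm38.p6), and 12754 tested genes had one. Searched on both strands, the octamer ATGCAAAT was in a window of 1.72% of these genes, in 1.68% of those at least 2-fold higher and in 2.03% of those at least 2-fold lower. At 8-fold or more the shares were 2.21% and 2.7%. Among list members with a window it was in Zfp42, in the trophoblast genes Cdx2, Plet1 and Tpbpa, in the epithelial factor gene Elf3 and in Aldh1a2, which makes retinoic acid. Shown for the gene that fell and for 3 that rose are 30 bases either side of the match, in capitals, 5′ to 3′ on the strand of the gene: Zfp42 at chr8:43307158-43307225 (minus), Cdx2 at chr5:147307359-147307426 (minus), Tpbpa at chr13:60942089-60942156 (minus) and Elf3 at chr1:135258583-135258650 (minus).
Zfp42: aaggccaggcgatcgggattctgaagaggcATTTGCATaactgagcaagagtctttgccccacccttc
Cdx2: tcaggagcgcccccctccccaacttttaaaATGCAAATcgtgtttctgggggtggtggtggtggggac
Tpbpa: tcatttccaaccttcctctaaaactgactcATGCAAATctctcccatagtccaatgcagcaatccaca
Elf3: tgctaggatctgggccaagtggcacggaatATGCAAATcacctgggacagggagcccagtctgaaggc

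The E-box CAGGTG was in a window of 22.4% of genes with one, in 25.3% of those at least 2-fold higher and in 24.0% of those at least 2-fold lower. At 8-fold or more the shares were 28.6% of higher and 27.9% of lower genes. It was in 8 of 17 trophoblast, 8 of 26 extraembryonic endoderm, 3 of 15 retinoic acid response and 7 of 15 general and naive pluripotency genes, the last including Nanog and Zfp42, which fell. Of the 19 epithelial list members with a window, 15 held it in any window, among them Krt7, Krt8, Krt18, Cldn4 and Cldn6. In Cldn3 and Dsp, also among the 15, the match lay after the start site. The stretches around it are shown for the keratins, which rose while Snai1 rose and Zeb1 fell: Krt7 at chr15:101412329-101412394 (plus), Krt8 at chr15:102004418-102004483 (minus) and Krt18 at chr15:102027972-102028037 (plus).
Krt7: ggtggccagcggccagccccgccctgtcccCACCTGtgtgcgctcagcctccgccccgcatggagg
Krt8: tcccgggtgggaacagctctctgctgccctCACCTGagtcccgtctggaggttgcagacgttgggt
Krt18: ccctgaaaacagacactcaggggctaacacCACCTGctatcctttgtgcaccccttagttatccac

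Other motifs searched included HNF4 (CAAAGTCCA, 0.463% of genes with a window), AP-2 (3.6%), the motif of GATA factors, which is AGATAAG (2.57%), TEAD (GGAATG, 15%) and the retinoic acid direct repeat (0.0706%). None is contained in another. A match is a description of letters and not a bound site or a cause, and no match says only that the letters are absent from this window.

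The retinoic acid response was present in the cKO. Of 21 tested genes, 16 rose and 3 fell, with a median log2 fold change of 2.44. Cyp26a1, which degrades retinoic acid, stood at 0.451, 0.392 and 0.376 CPM at day 0, at a mean of 220 CPM at day 2 and at 366, 332 and 306 CPM at day 6. Its log2 fold change of 9.66 ± 0.11 was not distinguished from that of parental cells (difference -0.34 ± 0.46, adjusted p = 0.579). Cyp26b1 rose from 1.19 to 288 CPM. Among the receptors, Rarb rose from 0.752, 0.941 and 0.753 CPM to 49.6, 41.5 and 42.7 CPM, yet less than in parental cells (difference -2.97 ± 0.43, adjusted p = 1.23e-07). Rara and Rarg fell, Rara from 45.3 to 19.4 CPM and Rarg from 117 to 12.6 CPM. In parental cells Rara rose from 40.6 to 79.4 CPM, and the difference in net change was -2.19 ± 0.10 (adjusted p = 1.45e-21).

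Hox genes, which set position along the body axis, were raised by less than in parental cells. Of 15 Hox genes of paralogue groups 1 to 5, 13 rose and none fell in the cKO, with a median of 3.57 against 6.56 in parental cells. Net changes of 10 of the 15 were below the parental ones and none was above. Hoxb1 was mainly a day 2 gene: its means were 0.0251, 88.7 and 2.08 CPM at days 0, 2 and 6. Hoxa5 rose from 0.448 to 16 CPM, and in parental cells from 0.359 to 128 CPM, a difference of -3.32 ± 0.74 (adjusted p = 0.00042).

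Of 20 tested Hox genes of paralogue groups 6 to 13, 8 rose, 5 fell and 7 were not called, and 14 had a net change below the parental one. Hoxc9 reached 3.04, 2.55 and 1.78 CPM in the cKO and 32.4 CPM on average in parental cells, from means of 0.526 and 0.256 CPM. Hoxb9 ended lower than it began, at 6.32, 8 and 8.47 CPM and then 2.20, 1.22 and 1.46 CPM, although its day 2 mean was 62.8 CPM. Without the genes of chromosome 11, which holds the HoxB cluster, 8 of the first list were higher.

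Neural genes ended low. Of 21 tested genes of neural progenitors and patterning, 11 fell and 3 rose, with a median of -0.90, and of 18 neuronal genes 10 fell and 6 rose, with a median of -1.21. Olig1, the neighbour and relative of Olig2, went from 34.9, 35.4 and 37.8 CPM to 0.0595, 0 and 0 CPM. Sox1, the earliest neural plate marker, had 4.29, 3.69 and 3.83 CPM and then no count, at least 21.7-fold lower, and Pax6 fell from 0.676 to 0.200 CPM after a day 2 mean of 7.31 CPM. Irx3, a patterning factor that mesoderm and endoderm also use, was the exception, rising from 0.63 to 60.8 CPM.

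Several genes named for neurons were already expressed in day 0 ESCs and fell from there. Stmn2, a microtubule regulator of growing axons, stood at 311, 306 and 356 CPM at day 0 and at 2.62, 1.68 and 1.33 CPM at day 6, a log2 fold change of -7.42 ± 0.10 (adjusted p = 3.23e-39). In parental cells it ended at 91.3 CPM, and the difference was -5.85 ± 0.12 (adjusted p = 5.89e-31). Nefm, the medium neurofilament chain (ENSMUSG00000022054), fell from 58.7, 58.6 and 64.7 CPM to 8.04, 7.99 and 7.75 CPM in the cKO and rose from 24.8 to 412 CPM in parental cells. Tubb3, a beta tubulin of neurons, fell less than in parental cells, from 81.7 to 25.2 CPM against 67.7 to 9.35 CPM (difference 1.15 ± 0.14, adjusted p = 2.8e-08). Elavl3, a neuronal RNA-binding protein gene, rose from 3.49 to 7.10 CPM and fell in parental cells from 7.93 to 0.732 CPM. Over the 18 genes, 3 net changes were above the parental one and 11 below. Dcx, doublecortin of migrating neurons, stayed low at 0.536, 1.39 and 0.381 CPM at day 6, against 105 CPM in parental cells, and Ncam1 rose 2.16-fold to a mean of 40.1 CPM, against 261 CPM in parental cells.

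In the neural crest list, 6 of 11 tested genes rose and 3 fell. Ngfr, the low-affinity nerve growth factor receptor, fell from 63.7, 57.1 and 58.0 CPM to 0.476, 0.637 and 0.636 CPM, while in parental cells its net change was not called (23.4 to 24.9 CPM). The difference was -6.75 ± 0.18 (adjusted p = 5.16e-28). Sox9 rose from 5.99 to 12.3 CPM and Ets1 from 3.39 to 35.5 CPM.

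Mesodermal genes were mixed. Of 24 tested genes of the primitive streak and early mesoderm, 11 rose and 8 fell, with a median of 1.09. The streak genes T, Mixl1 and Gsc ended at 0.041, 0.0424 and 0.205 CPM, each lower than at day 0, where they stood at 1.79, 0.574 and 2.35 CPM. Pdgfra, a growth factor receptor shared by primitive endoderm and mesoderm, rose from 3.31, 3.06 and 2.64 CPM to 188, 211 and 212 CPM. Bmp4 fell from 6.04 to 3.63 CPM where it rose in parental cells from 1.64 to 11.6 CPM. Among endothelial and blood genes, 7 of 17 rose and 8 fell. Kdr, the main receptor for vascular endothelial growth factor, reached 12.4, 13.1 and 13.1 CPM from 1.73, 1.73 and 1.07 CPM, 8.67-fold higher, while parental cells went from 1.1 to 226 CPM. The difference was -4.55 ± 0.30 (adjusted p = 2.81e-16). The sister receptor Flt1 went further in the cKO, from 4.14, 5.33 and 4.14 CPM to 268, 272 and 242 CPM, and its net change was 2.09 ± 0.15 above the parental one (adjusted p = 1.30e-14). Pecam1 and Eng, which ESCs also express, fell from 106 to 12.7 CPM and from 91.4 to 6.23 CPM.

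Of 18 tested genes of muscle and heart muscle, 12 rose and 2 fell, with a median of 1.58. Net changes of 6 were above the parental one and of 6 below, near the shares over all tested genes (32% and 31.9%). Myl7 and Myl4, the atrial myosin light chains, rose from 3.43 to 34.2 CPM and from 5.07 to 78.9 CPM, both more than in parental cells, by 3.41 ± 0.18 and 2.68 ± 0.17 (adjusted p = 3.46e-19 and 1.13e-16). Fibroblast and matrix genes gained less than in parental cells: 10 of 18 rose and 5 fell in the cKO, and 12 had a net change below the parental one. Col1a1, a collagen I chain, stood at 158, 152 and 154 CPM at day 0 and at 250, 247 and 198 CPM at day 6, 1.5-fold higher, where parental means went from 540 to 2038 CPM. Col3a1 rose from 21.0 to 166 CPM, and Lox, which cross-links collagen, fell from 91.1 to 5.51 CPM.

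Signals and targets of the TGF-beta family moved both ways. Of 28 tested genes, 13 rose and 11 fell, the latter including Nodal, Bmp4, Id3 and Id4. Nodal, the ligand that keeps epiblast identity, fell from 155, 158 and 180 CPM to 1.85, 0.869 and 1.65 CPM, and its inhibitor Lefty2 from 205 to 0.202 CPM. Lefty1 fell from 21.1 to 0.920 CPM after a day 2 mean of 95.3 CPM. Id1, an inhibitor of differentiation induced by BMP, rose from 4.74, 5.02 and 6.21 CPM to 52.0, 48.9 and 51.2 CPM, Bmp2 from 1.50 to 15.7 CPM and the activin antagonist Fst from 26.5 to 189 CPM.

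Proliferation genes were lower at day 6. Of 25, 23 fell and 2 rose, with a median of -1.16. The replication helicase genes Mcm2, Mcm3 and Mcm5 fell 4.24-fold, 4.16-fold and 4.21-fold, Mcm2 from 687, 683 and 696 CPM to 164, 163 and 159 CPM. The 2 that rose were Ccne2, cyclin E2, from 25.0 to 59.0 CPM, and Myc, from 22.6, 23.7 and 24.9 CPM to 44.1, 39.9 and 40.4 CPM. Among targets of p53 and genes of arrest and death, 9 of 21 rose and 9 fell: the cell cycle inhibitor Cdkn1a fell from 229 to 145 CPM, and Cdkn1c, an imprinted inhibitor used in placenta, rose from 3.53, 4.39 and 4.02 CPM to 306, 272 and 274 CPM.

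Glucose handling changed unevenly. Of 21 glycolysis genes, 13 rose and 7 fell with a median of 0.22, where parental cells had 5 higher and 14 lower. Slc2a1, the glucose transporter GLUT1, rose from 352, 352 and 387 CPM to 2625, 2450 and 2530 CPM, 6.97-fold, and Slc16a3, a lactate exporter, 12.1-fold. The glycolytic enzymes Pkm and Eno1 fell 1.95-fold and 1.83-fold, with no difference from the parental net change called (0.09 ± 0.08 and -0.00 ± 0.09, adjusted p = 0.322 and 0.987). Net changes of 16 of the 21 were above the parental ones.

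Genes of the lysosome and of endocytic uptake rose in 22 of 25 cases and fell in none, with a median of 2.25 against 0.74 in parental cells, and 21 gained more than there. Ctsh, a lysosomal cysteine protease, went from 1.58, 1.41 and 2.07 CPM to 79.9, 88.3 and 83.5 CPM, 48.8-fold higher, and its net change was 2.82 ± 0.24 above the parental one (adjusted p = 5.66e-13). Psap, which encodes the saposin precursor and was named after its values were seen, rose from 477 to 2779 CPM. Of 22 genes of interferon response and antigen presentation, 13 rose and 6 fell. The class I genes H2-K1 and H2-D1 rose from 25.3 to 151 CPM and from 28.8 to 243 CPM, while Ifitm1, which ESCs express, fell from 106 to 1.1 CPM. H2-K1 and H2-D1 are near-identical to their neighbours, so their counts are uncertain.

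Imprinted genes rose in 24 of 28 cases and fell in 4, with a median of 2.64. H19 stood at 55.1, 59.6 and 66.3 CPM at day 0 and at 14354, 12854 and 13339 CPM at day 6 (log2 fold change 7.80 ± 0.07), and Airn, the antisense RNA of the Igf2r gene, rose from 0.400 to 31.0 CPM while Igf2r fell from 130 to 49.0 CPM. Without strand information, reads of Airn and Igf2r cannot be told apart where they overlap. Phlda2, a restrainer of placental growth, rose from 2.26, 2.59 and 3.95 CPM to 19.7, 18.3 and 15.4 CPM. Ndn was 1.21-fold lower and lost its call without cKO day 0 replicate 3 (adjusted p = 0.11).

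**Figure D3:**
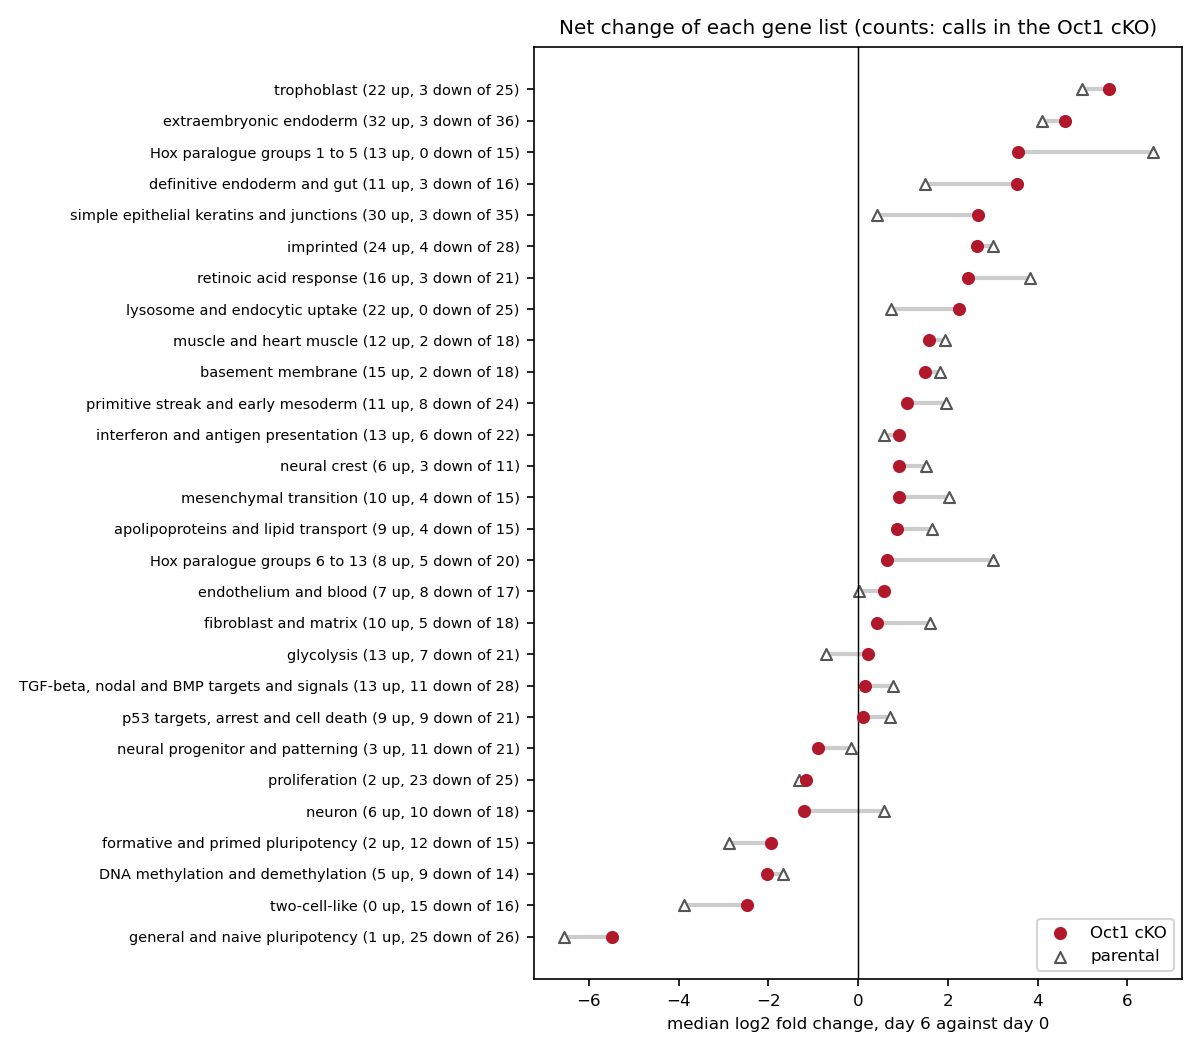
Median log2 fold change of day 6 against day 0 over the tested members of each gene list, in the Oct1 cKO (circles) and in parental cells (triangles), with the number of members called higher and lower in the cKO. Trophoblast at 5.58 and extraembryonic endoderm at 4.6 lie furthest right in the cKO, and the early Hox genes at 3.57 against 6.56 lie furthest from the parental value on the left.

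How far this net change was shared was read against parental cells of the same days, which share no library with the cKO. There 8315 genes (45.3% of those tested) were higher and 7373 (40.2%) lower. Of the 7592 genes higher in the cKO, 5739 were higher in parental cells too, which is 75.6% of the cKO list and 69% of the parental one. Of the 7417 lower in the cKO, 5435 were lower in both, 73.3% and 73.7% of the lists. The opposite direction was taken by 975 genes that rose in the cKO and fell in parental cells. Another 1138 fell in the cKO and rose in parental cells. The difference was called for all of them. Choosing genes called in opposite directions all but fixes that call, so it adds no support. Within the genes that rose in both, the difference was called for 3585, 2017 with the larger rise in the cKO and 1568 with the smaller. With no scaling factor on library sizes, 40.2% of the differences called were above the parental change, against 50.1% with TMM, and the median difference over all genes moved to -0.2.

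**Figure D4:**
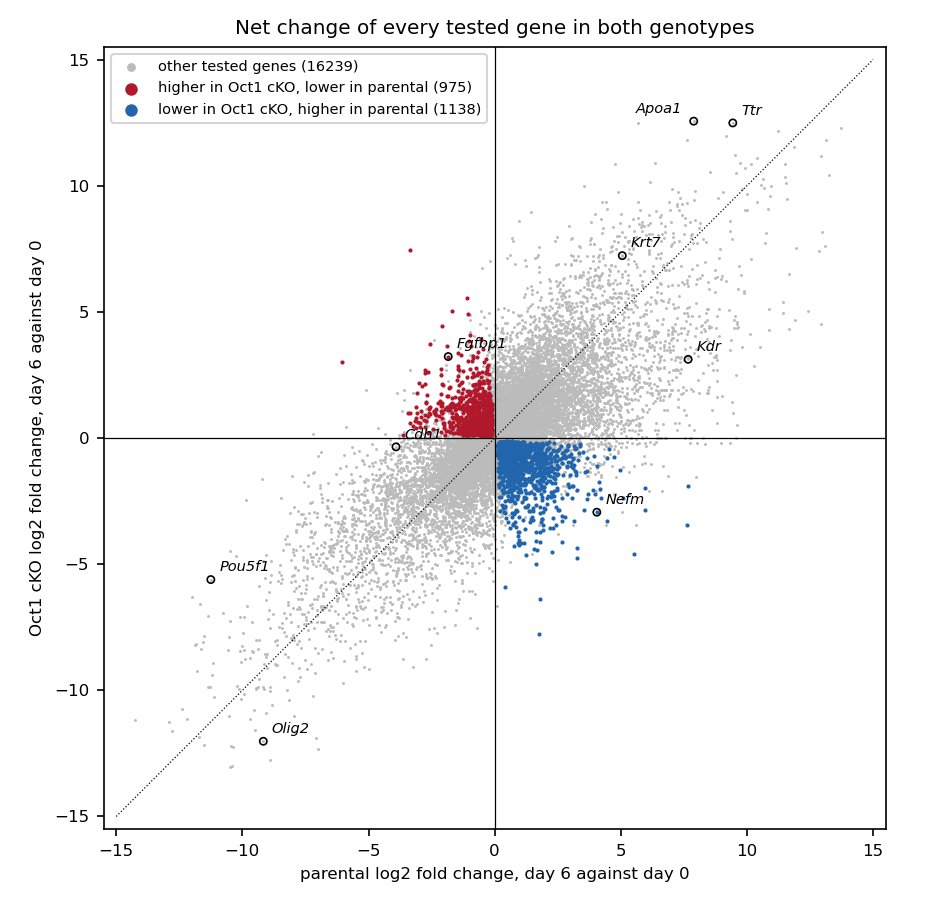
Log2 fold change of day 6 against day 0 in parental cells (x axis) and in the Oct1 cKO (y axis) for the 18352 tested genes; the dotted line marks equal change, and values beyond about 10 on either axis rest on groups at or near 0 counts. The 975 genes in red rose in the cKO and fell in parental cells, and the 1138 in blue did the reverse.

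Genes that moved in opposite directions with the largest changes in both genotypes were named by rule. Those that rose in the cKO and fell in parental cells were Phlda2, Dok2, Pdzk1, Chil1, Ankrd1 and Fgfbp1. Fgfbp1, a carrier that releases fibroblast growth factors from the matrix, stood at 8.20, 6.35 and 6.65 CPM at day 0 and at 65.3, 66.5 and 67.4 CPM at day 6 (log2 fold change 3.23 ± 0.09), and its parental mean fell from 16 to 4.46 CPM. Dok2, an adaptor of receptor tyrosine kinases, rose from 4.60 to 21.1 CPM in the cKO, after a day 2 mean of 67.2 CPM, and fell from 10.8 to 1.37 CPM in parental cells. Those that fell in the cKO and rose in parental cells were Nefm, Mybpc1, Tmem151b, Fmod, Scn2b and Bnc2. Mybpc1, a myosin-binding protein, went from 2.71, 1.41 and 2.45 CPM to 0.179, 0.0579 and 0.0636 CPM, and in parental cells from 2.46 to 23.8 CPM. Bnc2, a zinc finger gene, stood at 11.1, 11.4 and 6.21 CPM at day 0, with replicate 3 apart from the others, and at 1.85, 2.20 and 1.46 CPM at day 6.

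Genes named for the largest differences above the parental change included Nos2, Dmrtc1b, Atp2c2, Abcc8 and B4galnt2, which rose in the cKO, and Slc15a1 and Pramel7, which fell in both genotypes and ended without a count in parental cells. Dmrtc1b rose from 0.362 to 11.8 CPM and fell in parental cells from 3.36 to 1.03 CPM. Atp2c2, a calcium and manganese pump of secretory cells, stood at 0.526, 0.784 and 0.376 CPM at day 0 and at 59.3, 61.8 and 65.5 CPM at day 6, where the parental mean rose from 0.771 to 1.85 CPM (difference 5.57 ± 0.50, adjusted p = 3.49e-12). Abcc8, the sulfonylurea receptor, rose from 1.73 to 51.5 CPM and fell in parental cells from 5.34 to 2.56 CPM. B4galnt2, a glycosyltransferase, rose from 0.357 to 56.0 CPM in the cKO and from 3.25 to 10.8 CPM in parental cells. On the other side, Gucy1a1, a subunit of the nitric oxide receptor, reached 8.16, 6.78 and 4.26 CPM from a mean of 0.187 CPM, and 259 CPM in parental cells. Tgm5, a transglutaminase, reached 1.24 CPM in the cKO and 56.6 CPM in parental cells, and Ifi203, an interferon-inducible gene, 0.543 and 66.3 CPM.

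**Figure D5:**
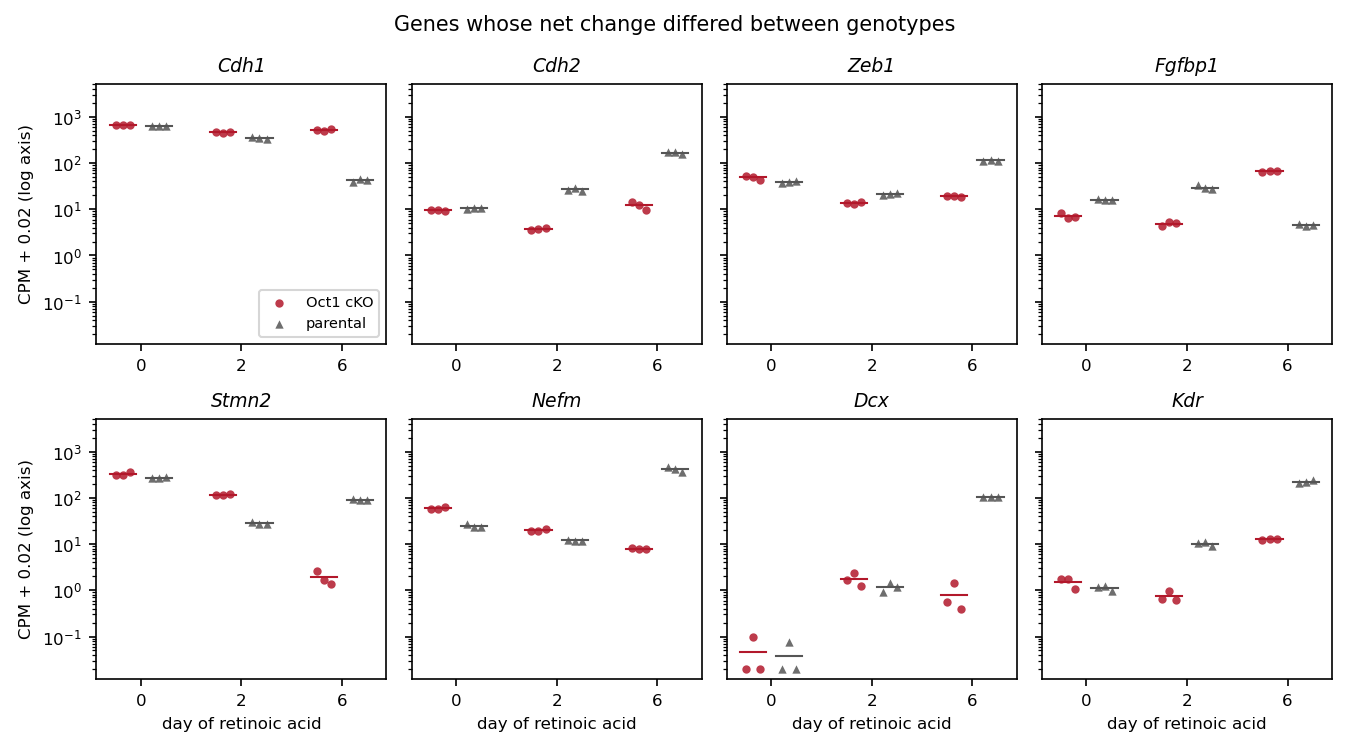
CPM of 8 genes in each library (points, log axis, 0.02 CPM added) at days 0, 2 and 6; bars are means of 3 libraries. At day 6 the cKO libraries (circles) of Cdh1 and Fgfbp1 lie above the parental ones (triangles), and those of Cdh2, Zeb1, Stmn2, Nefm, Dcx and Kdr below them.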

How the data were processed

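The authors deposited 1 table of raw read counts per gene for 18 libraries of 6 groups. Reads were aligned with Novoalign to mm10 (GRCm38) and DESeq2 1.10.0 was used, per the submitters' processing notes. The counting tool, its annotation and its strand setting were not stated in the sources used here. Labels' titles tied each column to its group, and no replicate numbers paired the libraries.

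Genes were kept by filterByExpr (minimum count 10, minimum total 15), scaled by TMM and fitted in 1 quasi-likelihood model of all 18 libraries with edgeR 4.0.16 and limma 3.58.1 in R 4.3.3. Contrasts were day 6 against day 0 in the cKO, the same in parental cells, and the difference between these. Genes were called at a Benjamini-Hochberg adjusted p under 0.05 over the 18352 genes tested, and the scripts were tested on simulated data. Total counts of the 6 cKO libraries ranged from 13694126 to 19018933, and the floor for a group without counts was 3 counts per library.

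Named genes were the 4 markers, the 12 largest increases and 12 largest decreases (mean log2 CPM of at least 1, groups not overlapping, an official symbol), 8 and 8 for the difference, 6 and 6 in opposite directions, up to 3 each way per list reaching 2 CPM, and a set of regulators; others were chosen after their values were seen. The members and the 28 lists were chosen with earlier results of these data known. Alternatives were the DESeq2 1.42.0 test, DESeq2 size factors, no scaling factor, no filter, only the libraries compared, chromosome 11 left out, a fold of at least 2, and each library left out. Gene coordinates came from GENCODE M21 on GRCm38, matched by Ensembl ID, and promoters from RefSeq GRCm38.p6, without chromosome 18. Motifs were searched on both strands. A few genes are not reported here.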

Additional observations from a re-analysis of the deposited data

Results flagged for a closer look

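For 22 of the genes named by rule or in the set of regulators, the net change ran in opposite directions in the 2 genotypes. Both changes and their difference were called (edgeR quasi-likelihood test), and the opposite calls all but fix the call of the difference. Other genes named above, such as Tfap2c, were not in this count. Chance and the choice of genes by rule both bear on the list of 22, and no explanation was weighed. Among those higher in the cKO and lower in parental cells, the difference on the log2 scale was 6.73 for Dmrtc1b, 5.98 for Abcc8, 5.33 for Phlda2, 5.18 for Dok2, 5.08 for Fgfbp1, 4.84 for Pdzk1, 4.43 for the RNA-binding neuronal gene Elavl3, 4.24 for Chil1 and 4.15 for Ankrd1. It was 2.0 for Ccne2 and 1.56 for Lin28a.

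Among those lower in the cKO and higher in parental cells, the difference was -7.63 for Mybpc1, -6.99 for Nefm, -6.77 for Tmem151b, -6.06 for Scn2b, -5.93 for Fmod and -4.59 for Bnc2. It was -3.58 for Pax6, -3.57 for Bmp4, -3.18 for Ndn, -2.9 for Zeb1 and -2.19 for Rara. The cKO change of Ndn was small (-0.28) and lost its call without cKO day 0 replicate 3.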

How the results depend on the processing

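Calls of the cKO net change ranged from 14764 to 14891 with 1 of its 6 libraries left out. Requiring a fold of at least 2 left 9309 calls in the cKO (4892 higher, 4417 lower), 9527 in parental cells (5409 and 4118) and 6303 for the difference in net change (2877 and 3426), which follows from the stricter rule. With no scaling factor, 11946 differences were called (4801 above and 7145 below the parental change). Over 192 named genes and 2283 values of the cKO change, none reversed and 7 values of 5 genes lost their call: Tead4, Agrn, Ndn, Cdh2 and Fgf5, each on leaving out 1 library; the cause was not tested. Of 3440 values of the difference, 33 lost and 45 gained a call and none reversed. Of 728 list counts, 30 moved by more than 1.5 times. No paired analysis was possible because the labels give the libraries no replicate numbers. Genes at a few counts per library, such as Afp and Foxa2 at day 0, are limited by depth.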

Other observations

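The 402 genes of chromosome X with a level of at least 5 CPM had a median log2 fold change of 0.35 in the cKO and 0.3 in parental cells. The median for chromosome 11 was -0.01 in the cKO.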
